A study of Homo sapiens with 30 samples.

Results

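VCaP and C4-2 are human prostate cancer lines used as models of castration-resistant disease, and this comparison sets their control libraries side by side. VCaP came from a vertebral metastasis and is known for a fusion that places ERG, an ETS transcription factor, under the androgen-driven TMPRSS2 promoter. C4-2 was derived in mice from LNCaP, a line from a lymph node metastasis, and grows without testicular androgen. The members were 5 of the 30 columns of the series, chosen by their labels: 3 libraries of VCaP cells transfected with 20 nM of a non-targeting siRNA for 2 days, and 2 libraries of C4-2-tet-shRB cells labelled DMSO. These C4-2 cells carry a hairpin against RB1 that doxycycline can induce, and the libraries used here had received no doxycycline. The C4-2 medium was RPMI 1640 with 5% charcoal-stripped serum, which is depleted of androgens. For VCaP the labels name DMEM with 10% fetal bovine serum, not stripped serum, while the library names carry the abbreviation of charcoal-stripped serum. The androgen content of that medium is therefore not settled. Line, transfection, medium and experiment differed together and cannot be told apart in the values below. The labels do not say whether replicates were separate cultures, so the errors and p-values measure the spread between these libraries, which may be technical.

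Androgen signalling is the main growth pathway of both lines. It acts at DNA elements beside genes such as KLK3 (prostate-specific antigen), KLK2 and TMPRSS2, where FOXA1 and HOXB13 keep chromatin open. An ERG fusion couples this androgen drive to an oncogenic ETS factor.

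Poly(A) RNA kits were used for both sets per the labels. The VCaP libraries held 4311455 to 4551211 counted reads and the C4-2 libraries 14515932 and 15736773, over 57773 annotated genes. Levels are given in CPM, counts scaled to library size with TMM factors, and intervals and floors cover counting error only. The variation between replicates was 3.64%. A chi-square ratio, which is 1 when libraries differ by counting error alone, was 1.13 to 1.18 between VCaP libraries and 3.56 between the C4-2 libraries. Transcripts of the mitochondrial genome took 2.93 to 3.09% of VCaP reads, against 3.48 and 4.48% of C4-2 reads. All 10 luminal prostate markers were expressed above the filter in at least 1 line. Leukocyte markers summed to 0.879 to 1.85 CPM in VCaP libraries and 1.41 to 1.597 CPM in C4-2 libraries, with CD3E, CD3D, MS4A1 and ITGAM at 0 in all 5. Endothelial markers summed to 1.14 to 2.54 CPM in VCaP and 7.26 to 9.65 CPM in C4-2, with CDH5, KDR and TEK at 0 and VWF, a clotting protein, alone above the filter. Fibroblast markers summed to 10.9 to 15.6 CPM in VCaP, where LUM (lumican) led with 7.37 ± 1.56 CPM, and 49.2 to 54.8 CPM in C4-2, where COL1A1 (collagen) led with 46.3 ± 2.98 CPM; FAP was at 0 in both. Of the basal markers, KRT5 was at 0 in all 5 libraries and KRT14, a basal keratin, had 5.72 ± 0.3501 CPM in VCaP and 0.198 ± 0.0835 CPM in C4-2, while DST (dystonin) had 134 ± 5.24 CPM in VCaP and 26.6 ± 0.657 CPM in C4-2, and ITGB4 (integrin beta 4) 10.9 ± 0.744 CPM in VCaP and 35.3 ± 2.09 CPM in C4-2.

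The lines differed at most expressed genes. Of 15302 genes tested, 6349 (41.5%) were higher in VCaP and 6681 (43.7%) were lower, and 85.2% were thus called in either direction by edgeR's quasi-likelihood test at an adjusted p under 0.05. At a difference of at least 4-fold, 1620 genes (10.6%) were higher in VCaP and 1814 (11.9%) lower, 22.4% in all. The CPM ranges of both sets did not overlap for 88.1% of genes. With replicates this close, a call by itself says little about a gene, and the counts of the gene groups below are read against these shares. The median log2 difference over all tested genes was -0.04. In bulk RNA, fewer cells that express a gene and less RNA per cell cannot be told apart. Each group was fixed as a list of genes, and the number tested is given with the number followed. A gene silent in 1 line passed the filter only through the other line and so had to be called. For the strongest differences adjusted p-values fell below the range of computed numbers, and log2 differences are given with their standard errors (SE) in their place. Log2 differences are VCaP over C4-2 throughout, and means are given ± SD (n = 3 VCaP and 2 C4-2 libraries).

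The scale of this gap was set against other pairs of libraries with 1 measure, the log2 ratio of mean CPM + 0.5. By it, VCaP and C4-2 differed at least 4-fold at 3023 genes (19.8% of those tested). All pairs used the genes that passed the filter in VCaP and C4-2 DMSO libraries. Genes expressed only in the other libraries were thus left out, so the shares of the pairs are not on an even footing. The single C4-2 vehicle library of the androgen experiment, made with a total RNA kit from cells in 8% charcoal-stripped and 2% full serum, differed from the C4-2 DMSO libraries by as much at 1050 genes (6.86%), and the LNCaP vehicle library at 1029 genes (6.72%). The median absolute log2 difference from the C4-2 DMSO libraries was 0.864 for VCaP, 0.65 for that C4-2 library and 0.463 for LNCaP. That C4-2 vehicle library has no replicate, so calls against it below rest on the spread of the VCaP libraries alone. RB1 siRNA in VCaP gave a 4-fold difference by this measure at 1 gene and doxycycline in C4-2 at 2 genes.

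**Figure D1:**
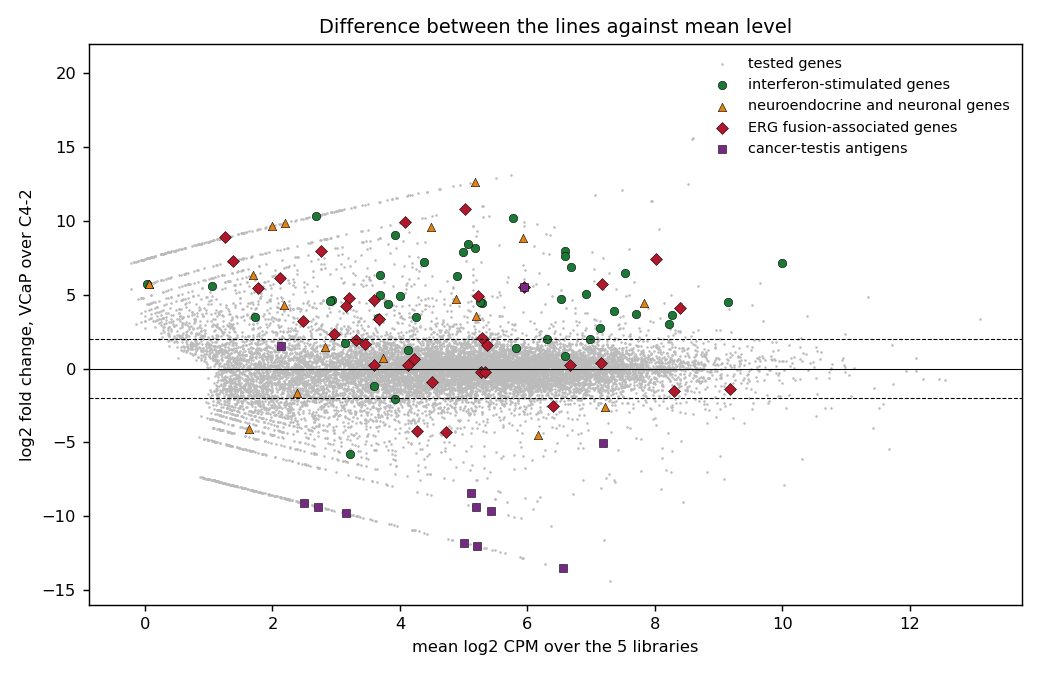
Log2 fold change of VCaP over C4-2 (y axis) against the mean log2 CPM of the 5 libraries (x axis), with each tested gene in grey and 4 gene lists in colour; dashed lines mark 4-fold. Interferon-stimulated, neuroendocrine and ERG-associated genes lie mostly above 0 and cancer-testis antigens mostly below it, and slanting rows of points at the left and outer edges are genes with 0 or few counts in 1 line, whose fitted value is no bound.

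ERG, the marker of the fusion, had 273, 284 and 284 CPM in the VCaP libraries, against 0.139 and 0 CPM in the C4-2 libraries. All VCaP libraries were thus above all C4-2 libraries, where ERG had 2 counts in all. Ranges did not overlap for 88.1% of all genes. The ratio for ERG was 4199, with an exact 95% counting interval of 1162 to 34685. The marker is as the VCaP label has it. Of 27 ETS factors, ERG included, 20 were tested, and 9 were higher in VCaP and 6 lower, shares near or under those of all genes, with a median of 0.01. SPDEF, a luminal ETS factor, averaged 564 ± 16.4 CPM in VCaP and 179 ± 10.7 CPM in C4-2 (log2 1.65 ± 0.05 SE). ETV7 averaged 3.92 ± 0.742 CPM in VCaP and 0.936 ± 0.0516 CPM in C4-2, and GABPA, a widely expressed ETS factor, 24.4 ± 2.87 CPM in VCaP and 10.8 ± 0.3101 CPM in C4-2. The epithelial ETS factors ELF5 and EHF were lower in VCaP, ELF5 at 8.56 ± 2.34 CPM in VCaP and 38.4 ± 2.41 CPM in C4-2, EHF at 286 ± 7.803 CPM in VCaP and 570.4 ± 29.4 CPM in C4-2. ELF4 was lower too, with 1.06 ± 0.582 CPM in VCaP and 16.6 ± 0.0639 CPM in C4-2. Against the C4-2 vehicle library of the androgen experiment GABPA was no longer called (log2 0.12).

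Genes reported to be high in ERG-positive prostate tumours were mostly higher in VCaP. Of 35 tested (of 38), 26 were higher and 8 lower, 19 of them at least 4-fold higher, against 10.6% of all genes, with a median log2 difference of 2.33. TDRD1, a germline RNA-binding protein that ERG is known to activate, had 144, 144 and 137 CPM in VCaP libraries and 2.99 and 3.02 CPM in C4-2 libraries (log2 5.55 ± 0.11 SE). PLA1A, a phospholipase, had 83.7, 83.9 and 86.4 CPM in VCaP and 0 and 0.0642 CPM in C4-2, where a single count was found. ARHGDIB, a GDP dissociation inhibitor, averaged 47.4 ± 4.33 CPM in VCaP, against 1 count in C4-2. In each of these 3 genes the lines did not overlap, as was so for 88.1% of all genes. The members that were lower included the glutamate receptor gene GRIN3A (2.01 ± 1.496 CPM in VCaP and 40.1 ± 0.0914 CPM in C4-2), the Notch target HES1 (1.505 ± 0.326 CPM in VCaP and 28.7 ± 1.53 CPM in C4-2) and the lipoxygenase gene ALOX15 (23.3 ± 3.19 CPM in VCaP and 132 ± 1.21 CPM in C4-2). TBL1XR1, a nuclear corepressor subunit, averaged 170.4 ± 12.4 CPM in VCaP and 477 ± 21.8 CPM in C4-2.

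ERG and TMPRSS2 lie close together on chromosome 21, and the genes between and beside them were followed as a group. Of 23 tested (of 27), ERG and TMPRSS2 included, 16 were higher in VCaP and 5 lower, with a median log2 difference of 1.52. At least 4-fold higher were 10, ERG among them. Among all genes 41.5% were higher and 10.6% at least 4-fold higher. TMPRSS2, a serine protease and the 5' partner of the fusion, went the other way, with 124, 116.3 and 121 CPM in VCaP libraries and 1183 and 1235 CPM in C4-2 libraries (log2 -3.33 ± 0.05 SE). B3GALT5, a glycosyltransferase gene, averaged 46.6 ± 4.85 CPM in VCaP, against 3 counts in both C4-2 libraries. PCP4, a calmodulin-binding protein, averaged 8.47 ± 1.46 CPM in VCaP, against 1 count in C4-2. MX1, next to TMPRSS2, is an interferon-stimulated gene and is described with that group. TMPRSS2 was thus the member with the largest fall, in a stretch where most genes were higher in VCaP.

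Among transcription factors of the prostate lineage, 14 of 19 tested (of 24) were higher in VCaP and 4 lower, with a median of 1.26. Of all genes 41.5% were higher and 43.7% lower. FOXA1, a pioneer factor that opens chromatin, averaged 977 ± 22.03 CPM in VCaP and 407 ± 8.36 CPM in C4-2. NFIB, a nuclear factor that partners FOXA1, averaged 307 ± 7.46 CPM in VCaP and 38.8 ± 0.161 CPM in C4-2, and SOX9, a progenitor factor, 164 ± 14.1 CPM in VCaP and 32.2 ± 2.23 CPM in C4-2. Lower in VCaP were ZNF217, a transcriptional regulator, with 110.5 ± 2.81 CPM in VCaP and 216 ± 6.54 CPM in C4-2, and the homeobox gene HOXB13, with 602 ± 16.3 CPM in VCaP and 812 ± 24.8 CPM in C4-2 (log2 -0.43 ± 0.04 SE). The difference of HOXB13 turned to 0.52 when the C4-2 vehicle library of the androgen experiment took the place of the DMSO libraries.

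Genes induced by androgen differed in both directions. Of 42 tested (of 44), 23 were higher in VCaP and 16 lower (41.5% and 43.7% among all genes), with a median of 0.29. At least 4-fold higher and lower were 11 and 6, against 10.6% and 11.9% of all genes. The kallikreins moved in opposite directions. KLK2, a kallikrein protease, had 14222, 13378 and 13802 CPM in VCaP and 1386 and 1319.5 CPM in C4-2 (log2 3.35 ± 0.05 SE). KLK3 had 179, 173 and 171 CPM in VCaP and 7828 and 7675 CPM in C4-2 (log2 -5.48 ± 0.05 SE). No VCaP library overlapped a C4-2 library at either gene, as was so for 88.1% of all genes. They are close paralogs, and how the counting treated reads that align to both is not given in the sources used here, so the split between them is uncertain. KLK15, a further kallikrein of the cluster, averaged 5.95 ± 0.373 CPM in VCaP and 35.4 ± 1.12 CPM in C4-2.

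The promoters of KLK2 and KLK3 are shown because the genes differed in opposite directions while the letters upstream of them are much alike. The 250 bases before each start site (RefSeq, GRCh38.p14, both on the plus strand) matched at 211 bases in an alignment with 23 mismatches and 32 gap positions, 90.2% of the aligned bases. Capitals mark a match to GAACA, the core of a steroid hormone response half-site, searched on both strands and found in 30.7% of 27305 RefSeq promoters and in 6 of 32 promoters of androgen-induced genes (18.8%). The match began 175 bases before the start of KLK2 and 169 bases before that of KLK3. KLK2 covers chr19:50873189-50873438 and KLK3 chr19:50854665-50854914.
KLK2: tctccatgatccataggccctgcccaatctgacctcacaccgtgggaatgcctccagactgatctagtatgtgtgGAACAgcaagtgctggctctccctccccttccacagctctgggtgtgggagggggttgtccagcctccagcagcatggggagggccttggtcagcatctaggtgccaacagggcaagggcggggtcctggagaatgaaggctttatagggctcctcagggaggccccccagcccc
KLK3: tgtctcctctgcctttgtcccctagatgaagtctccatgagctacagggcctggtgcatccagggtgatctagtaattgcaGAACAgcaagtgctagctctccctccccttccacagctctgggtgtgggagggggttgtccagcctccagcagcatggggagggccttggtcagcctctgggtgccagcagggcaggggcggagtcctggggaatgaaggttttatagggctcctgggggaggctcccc

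Further androgen-induced genes were near silent in C4-2. HPGD, which degrades prostaglandins, averaged 48.03 ± 6.42 CPM in VCaP, against 1 count in C4-2, and STEAP4, a metalloreductase, averaged 19.3 ± 2.16 CPM in VCaP, against 2 counts in C4-2. TRPM8, a cold-sensing ion channel of prostate epithelium, had 549, 551 and 578 CPM in VCaP and 17.1 and 18.2 CPM in C4-2 (log2 4.98 ± 0.07 SE). SORD (sorbitol dehydrogenase) was lower, with 49.2 ± 2.42 CPM in VCaP and 268 ± 6.802 CPM in C4-2 (log2 -2.45 ± 0.06 SE).

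Of 15 tested genes repressed by androgen (of 19), 8 were higher in VCaP and 5 lower (41.5% and 43.7% among all genes). At least 4-fold higher and lower were 5 and 5, against 10.6% and 11.9% of all genes. OPRK1, an opioid receptor, averaged 182 ± 7.33 CPM in VCaP and 0.824 ± 0.379 CPM in C4-2, and SI (sucrase-isomaltase) 40.7 ± 2.67 CPM in VCaP and 0.163 ± 0.133 CPM in C4-2. IGFBP3, which binds insulin-like growth factors, averaged 66.3 ± 3.03 CPM in VCaP and 9.197 ± 0.436 CPM in C4-2. Those lower were led by DDC, the decarboxylase of dopamine synthesis, with 5.51 ± 1.74 CPM in VCaP and 122 ± 1.46 CPM in C4-2, by BTG1, an antiproliferative gene, with 37.3 ± 4.32 CPM in VCaP and 262 ± 8.79 CPM in C4-2, and by GRB10, an adaptor of insulin signalling, with 83.2 ± 7.11 CPM in VCaP and 525 ± 8.04 CPM in C4-2.

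**Figure D2:**
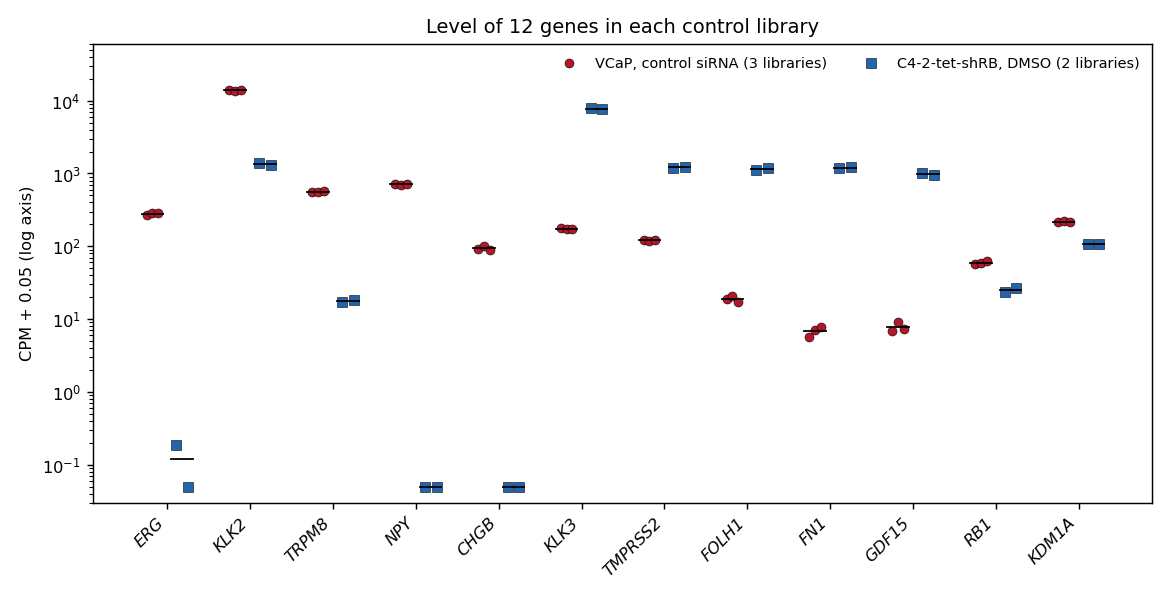
CPM of 12 genes (y axis, log scale, with 0.05 added so that 0 can be drawn) in the 3 VCaP control libraries (circles) and the 2 C4-2 DMSO libraries (squares), with bars at the means. KLK2 is higher and KLK3 lower in VCaP, NPY and CHGB are at 0 in C4-2, and replicates of a line lie close together.

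Enzymes that make or clear steroids differed in both directions, with 8 of 15 tested (of 43) higher in VCaP and 6 lower, close to the shares of all genes. HSD17B6 and AKR1C3, enzymes that produce active androgens, were higher. HSD17B6 averaged 56.3 ± 2.303 CPM in VCaP and 1.98 ± 0.929 CPM in C4-2, and AKR1C3 averaged 12.04 ± 1.21 CPM in VCaP and 0.505 ± 0.169 CPM in C4-2; AKR1C genes are near-identical copies and their reads may be split. HSD17B11 averaged 52.004 ± 0.777 CPM in VCaP and 3.21 ± 0.177 CPM in C4-2. SULT2B1, a sulphotransferase that clears sterols, averaged 0.828 ± 0.521 CPM in VCaP and 27.2 ± 0.529 CPM in C4-2. HSD17B1 averaged 1.06 ± 0.864 CPM in VCaP and 15.8 ± 0.498 CPM in C4-2, and SRD5A3, of the steroid reductase family, 13.1 ± 0.561 CPM in VCaP and 53.7 ± 1.31 CPM in C4-2. HSD17B10, a mitochondrial dehydrogenase, averaged 30.5 ± 2.63 CPM in VCaP and 123 ± 7.81 CPM in C4-2. With the C4-2 vehicle library of the androgen experiment, 10 were lower.

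Nuclear receptors were split evenly, 15 of 33 tested (of 46) higher and 15 lower (41.5% and 43.7% among all genes). RORB, an orphan receptor of the nervous system, averaged 21.1 ± 2.99 CPM in VCaP, against 1 count in C4-2. NR3C1, the glucocorticoid receptor, had 11.4, 13.9 and 15.4 CPM in VCaP and 0.139 and 0.257 CPM in C4-2 (log2 5.98 ± 0.34 SE). THRB, a thyroid hormone receptor, averaged 83.4 ± 4.61 CPM in VCaP and 15.7 ± 1.34 CPM in C4-2. The C4-2 vehicle library of the androgen experiment had 60.95 CPM of THRB, against which its log2 difference was 0.45. NR1H3, the oxysterol receptor LXR alpha, was lower, with 3.403 ± 0.678 CPM in VCaP and 32.5 ± 0.707 CPM in C4-2, as were PPARG, a fatty acid receptor, with 0.673 ± 0.436 CPM in VCaP and 6.15 ± 0.434 CPM in C4-2, and NR3C2, the mineralocorticoid receptor, with 1.43 ± 0.142 CPM in VCaP and 8.898 ± 1.59 CPM in C4-2.

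Secreted proteins and surface antigens used as prostate markers or therapy targets were all called where tested, 17 of 32 (of 36) higher in VCaP and 15 lower, and 12 and 7 of them were at least 4-fold apart. Of all genes 85.2% were called, with 10.6% at least 4-fold higher and 11.9% at least 4-fold lower. FOLH1, which encodes the prostate-specific membrane antigen used in imaging, had 18.9, 20.6 and 17.1 CPM in VCaP and 1104 and 1171 CPM in C4-2 (log2 -5.92 ± 0.07 SE). AZGP1, a secreted zinc-binding glycoprotein, averaged 0.831 ± 0.149 CPM in VCaP and 92.8 ± 1.21 CPM in C4-2. MUC1, a membrane mucin, averaged 0.746 ± 0.497 CPM in VCaP and 6.72 ± 0.573 CPM in C4-2. The C4-2 vehicle library of the androgen experiment had only 0.426 CPM of MUC1, which fell under the filter there. GRPR, the receptor of gastrin-releasing peptide, averaged 13.5 ± 1.52 CPM in VCaP, against 3 counts in C4-2, and F3 (tissue factor) 12.5 ± 0.392 CPM in VCaP and 0.163 ± 0.133 CPM in C4-2. NPY led the rises and is described below.

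The 15 largest rises in VCaP among well-expressed genes, clone-named genes and pseudogenes left out, were genes that were silent or near silent in C4-2. NPY, a neuropeptide, had 719.7, 704 and 728 CPM in VCaP and no count in C4-2, at least 7166-fold higher. INA, a neuronal intermediate filament, had 128, 133 and 129 CPM in VCaP and no count in C4-2. CHGB (chromogranin B) had 92.1, 99.4 and 88.4 CPM in VCaP and no count in C4-2, at least 931-fold higher. No C4-2 count was found for KCNK3, a potassium channel with 113 ± 9.51 CPM in VCaP, for ALDH7A1, an aldehyde dehydrogenase with 94.1 ± 7.02 CPM, or for ID4, an inhibitor of differentiation factors with 88.8 ± 3.87 CPM. The same held for WNT2, a Wnt ligand with 81.2 ± 3.87 CPM in VCaP, for CTNND2, a neural catenin with 76.1 ± 2.48 CPM, and for the kinase gene MATK with 66.9 ± 1.99 CPM. It also held for FAM213A with 66.6 ± 6.81 CPM in VCaP, the metallothionein MT1E with 59.1 ± 1.62 CPM, TMEM30B with 58.8 ± 2.22 CPM and PRDM1, a transcriptional repressor, with 54.05 ± 3.84 CPM. ITM2A, a membrane protein, averaged 679 ± 15.4 CPM in VCaP, against 3 counts in C4-2. HGF, the ligand of the MET receptor, had 361, 365 and 358 CPM in VCaP, against 2 counts in C4-2 (ratio 5419, exact 95% counting interval 1499 to 44756).

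The 15 largest falls, chosen in the same way, were at 0 in VCaP with 1 exception. BNIP3L, a mitophagy receptor, had no count in VCaP and 297 and 314 CPM in C4-2, at least 1354-fold lower. EFNA5, an ephrin, had 1 count in VCaP, against 284 ± 8.31 CPM in C4-2. HPS1, part of a complex that builds lysosome-related organelles, had no count in VCaP and 54.9 ± 1.17 CPM in C4-2. CSMD1 had 104 ± 3.85 CPM in C4-2, NLGN4X, a neuroligin, 83.9 ± 2.64 CPM, and UNC13C, a synaptic vesicle gene, 44.4 ± 0.80001 CPM, all at 0 in VCaP. THNSL2 had 104 ± 6.72 CPM in C4-2, the membrane metalloproteinase gene MMP16 79.4 ± 1.09 CPM, the docking protein gene EFS 74.1 ± 0.0165 CPM, CCDC85A 60.1 ± 6.78 CPM and CDR1 44.5 ± 1.88 CPM, again with no count in VCaP. MSN (moesin, which links actin to the membrane) had no count in VCaP and 69.9 and 73.99 CPM in C4-2, at least 319-fold lower with a floor of 3 counts over the group. The other 3 are cancer-testis antigens.

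Neuroendocrine and neuronal genes were mostly higher in VCaP. Of 30 genes followed, 18 passed the filter, of which 14 were higher and 4 lower, 12 of them at least 4-fold higher, with a median log2 difference of 4.59. The shares of all genes were 41.5% higher and 10.6% at least 4-fold higher. Members with no count in C4-2 had to be called. INSM1, a neuroendocrine transcription factor, had 11.8, 13.6 and 15.2 CPM in VCaP and no count in C4-2. SNAP25, a synaptic vesicle fusion protein, had 12.7, 13.4 and 9.45 CPM in VCaP and no count in C4-2, and SCG3 (secretogranin III) averaged 61.6 ± 2.55 CPM in VCaP, against 2 counts in C4-2. ENO2, an enolase used as a marker of neuroendocrine cells, went the other way, with 40.3, 40.2 and 43.5 CPM in VCaP and 247 and 249 CPM in C4-2. TUBB3, a neuronal tubulin, averaged 0.229 ± 0.227 CPM in VCaP and 4.11 ± 0.1795 CPM in C4-2, and RET, a receptor kinase, 2.04 ± 0.437 CPM in VCaP and 6.39 ± 0.686 CPM in C4-2. DDC, above, was the largest fall. In the C4-2 vehicle library of the androgen experiment TUBB3 had only 0.355 CPM and fell under the filter. Against the C4-2 vehicle library of the androgen experiment, ENO2 and RET reversed, with log2 differences of 0.74 and 1.36, and 1 member was lower.

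Interferon-stimulated genes, which cells switch on when they sense interferon or viral RNA, were higher in VCaP almost throughout. Of 43 tested (of 45), 40 were higher in VCaP and 3 lower, and 35 were at least 4-fold higher, against 41.5% higher and 10.6% at least 4-fold higher among all genes; the median log2 difference was 4.58. Summed, the group had 7794 to 7965 CPM in VCaP libraries and 544 to 564 CPM in C4-2 libraries. IFI44L, an antiviral protein, had 134, 131 and 134 CPM in VCaP and 0.208 and 0 CPM in C4-2, from 3 counts. MX1, an antiviral GTPase, had 360.3, 365 and 374 CPM in VCaP and 3.68 and 4.56 CPM in C4-2 (log2 6.46 ± 0.09 SE). RSAD2 (viperin) had 85.1, 81.6 and 93.4 CPM in VCaP and 0.347 and 0.128 CPM in C4-2. Every VCaP library exceeded every C4-2 library at these genes, while ranges did not overlap for 88.1% of all genes. OAS2, which activates RNase L, averaged 42.8 ± 3.15 CPM in VCaP, against 2 counts in C4-2. SAMD9L averaged 19.2 ± 0.873 CPM in VCaP with no count in C4-2, at least 191-fold higher. DDX58, the sensor RIG-I, had 195, 204 and 189.7 CPM in VCaP and 7.43 and 7.32 CPM in C4-2 (log2 4.73 ± 0.09 SE).

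The 3 members that were lower in VCaP were IFITM2, an antiviral membrane protein, with 3 counts in VCaP and 13.4 ± 1.43 CPM in C4-2, ISG20, an exonuclease, with 4.83 ± 0.775 CPM in VCaP and 20.4 ± 1.17 CPM in C4-2, and IFI35, an interferon-induced protein, with 6.57 ± 1.07 CPM in VCaP and 14.7 ± 1.66 CPM in C4-2. IFITM genes are close paralogs, so their counts may be split. All VCaP libraries came from transfected cells and no C4-2 library did, so line and transfection cannot be told apart here. In libraries of the series outside the comparison, the summed level was 9586 to 9753 CPM in VCaP with RB1 siRNA, 517 CPM in both C4-2 libraries with doxycycline and DMSO, 577 CPM in the C4-2 vehicle library of the androgen experiment and 693 CPM in LNCaP.

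Promoters of IFI44L, RSAD2 and IFI44 are shown, the genes with the largest differences whose promoter held the motif sought. IFI44, of the same family as IFI44L, averaged 92.8 ± 3.72 CPM in VCaP and 0.299 ± 0.0307 CPM in C4-2 (log2 8.20 ± 0.18 SE). Capitals mark GAAANNGAA or its reverse complement, part of the interferon-stimulated response element, in the 250 bases before the start site (RefSeq, GRCh38.p14, plus strand). It was found in 21 of 35 promoters of interferon-stimulated genes (60%) and in 7.06% of all 27305 promoters. The stretches are chr1:78620198-78620447 for IFI44L, chr2:6865635-6865884 for RSAD2 and chr1:78649539-78649788 for IFI44.
IFI44L: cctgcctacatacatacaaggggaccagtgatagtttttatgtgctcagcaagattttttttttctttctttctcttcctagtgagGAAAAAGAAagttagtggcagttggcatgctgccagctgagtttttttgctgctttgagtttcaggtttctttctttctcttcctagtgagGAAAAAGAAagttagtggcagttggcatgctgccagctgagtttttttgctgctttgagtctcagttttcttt
RSAD2: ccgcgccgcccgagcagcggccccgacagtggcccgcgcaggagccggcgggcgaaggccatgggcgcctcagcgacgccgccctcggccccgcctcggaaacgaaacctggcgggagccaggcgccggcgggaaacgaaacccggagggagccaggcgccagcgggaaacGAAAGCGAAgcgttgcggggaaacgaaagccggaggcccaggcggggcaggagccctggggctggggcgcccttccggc
IFI44: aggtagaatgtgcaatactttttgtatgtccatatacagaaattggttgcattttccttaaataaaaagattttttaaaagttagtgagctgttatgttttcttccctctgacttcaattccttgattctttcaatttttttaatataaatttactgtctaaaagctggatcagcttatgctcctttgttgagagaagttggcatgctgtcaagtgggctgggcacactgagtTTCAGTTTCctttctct
IFI44L held 2 matches, and RSAD2 and IFI44 held 1 each. A match describes the letters and is no measured binding site.

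**Figure D3:**
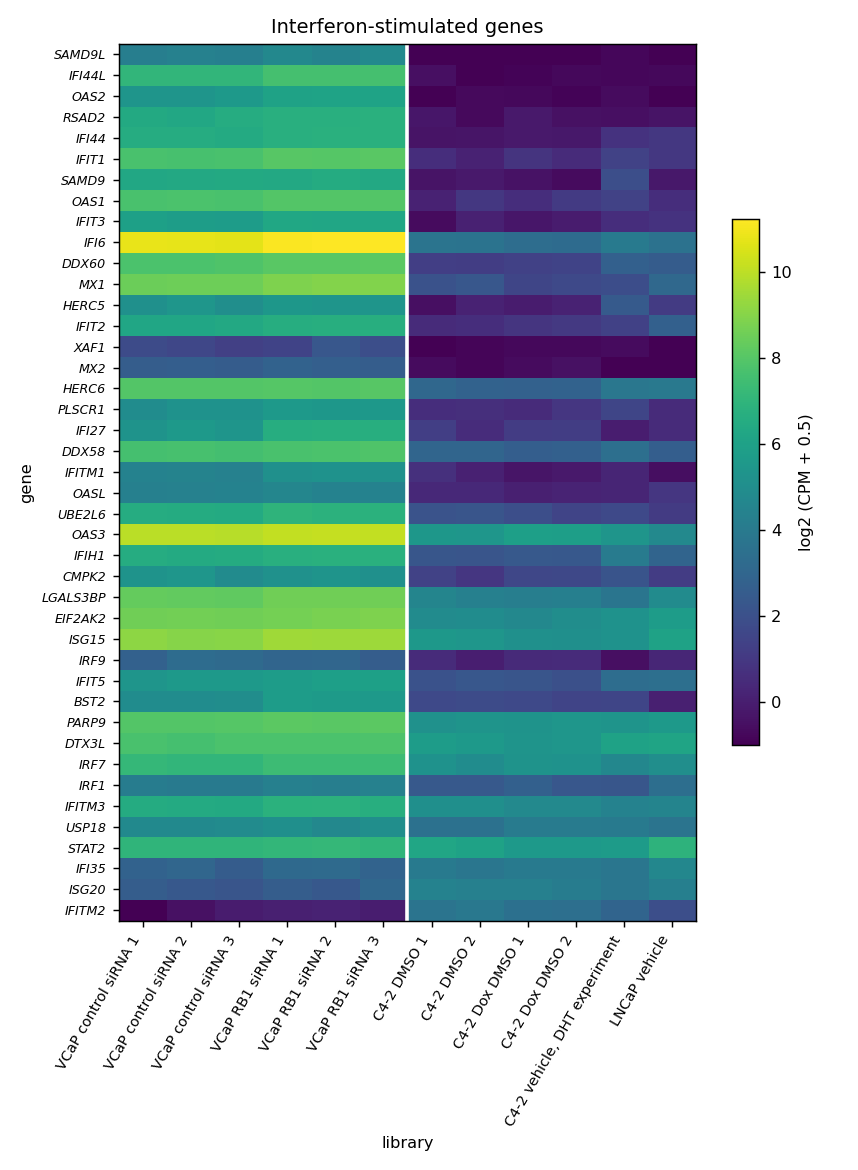
Log2 of CPM + 0.5 for 42 of the 43 tested interferon-stimulated genes (rows, ordered by the difference between the lines) in 12 libraries (columns), with VCaP libraries left of the white line and C4-2 and LNCaP libraries right of it. All but the last 3 rows are higher in VCaP control libraries than in C4-2 DMSO libraries.

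Genes of antigen presentation did not follow as 1 group, with 12 of 23 tested (of 26) higher and 8 lower, or 5 lower against the C4-2 vehicle library of the androgen experiment. The shares of all genes were 41.5% higher and 43.7% lower. PSMB8, an immunoproteasome subunit, averaged 35.6 ± 1.897 CPM in VCaP and 1.81 ± 0.797 CPM in C4-2, and PSMB9, its partner, 11.2 ± 1.05 CPM in VCaP and 1.12 ± 0.504 CPM in C4-2. HLA-DMB, which loads class II molecules and is also among the ERG-associated genes, averaged 32.4 ± 0.825 CPM in VCaP and 1.29 ± 0.353 CPM in C4-2, and ERAP2, a peptide-trimming enzyme, 35.5 ± 2.38 CPM in VCaP and 1.54 ± 0.0848 CPM in C4-2. Of the class I heavy chain genes, HLA-E had 26.6, 23.1 and 21.8 CPM in VCaP and 58.5 and 55.2 CPM in C4-2 (log2 -1.25 ± 0.09 SE). PSMB10 averaged 2.103 ± 0.464 CPM in VCaP and 6.33 ± 0.868 CPM in C4-2, a call that ended against the C4-2 vehicle library of the androgen experiment (log2 -0.46). How well reads of the variable HLA genes aligned in each line was not tested. HLA-DRA, a class II chain, had 2 counts in VCaP and 2.94 ± 0.0677 CPM in C4-2.

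Cancer-testis antigens, genes of the germ line that tumours may switch on, were mostly lower in VCaP. Of 42 followed, 12 passed the filter, of which 10 were lower, all by at least 4-fold, and 2 higher. Among all genes 43.7% were lower and 11.9% at least 4-fold lower. Members with no count in VCaP passed the filter only through C4-2, so their call was fixed in advance. The median log2 difference of those tested was -9.36, or -6.83 with genes at 0 in 1 line set to their bound. PAGE1 had no count in VCaP and 180.1 and 162 CPM in C4-2, at least 755-fold lower. MAGEA6 had no count in VCaP and 59.8 and 60.7 CPM in C4-2, MAGEA12 none in VCaP and 50.2 and 52.4 CPM in C4-2, and MAGEA10 none in VCaP and 12.99 and 12.8 CPM in C4-2. The MAGEA genes are near-identical copies, so the level of each is uncertain. MAGEA6, MAGEA12 and MAGEA10 also lie in the same silent stretch of the X chromosome, described at the end. TDRD1, described with the ERG group, and TEX15, a meiotic gene with 7.61 ± 1.35 CPM in VCaP and 2.57 ± 0.000195 CPM in C4-2, were the members that were higher. TEX15 turned to -0.76 against the C4-2 vehicle library of the androgen experiment.

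The homeobox clusters, which record body position, differed in both directions. Of 23 tested (of 39), 8 were higher in VCaP and 13 lower (41.5% and 43.7% among all genes). Set apart by cluster after their values were seen, tested HOXC genes with counts in both lines had log2 differences from -5.25 (HOXC13) to -0.89 (HOXC6) and tested HOXA genes from -0.08 (HOXA6, not called) to 5.78 (HOXA9). HOXA13 had 118, 111 and 109 CPM in VCaP and 5.56 and 6.62 CPM in C4-2 (log2 4.20 ± 0.10 SE), HOXA9 averaged 24.6 ± 0.731 CPM in VCaP and 0.436 ± 0.0712 CPM in C4-2, and HOXD8 averaged 6.302 ± 2.71 CPM in VCaP with no count in C4-2. HOTTIP, a noncoding RNA transcribed beside HOXA13, averaged 73.5 ± 6.38 CPM in VCaP and 1.61 ± 0.467 CPM in C4-2 (log2 5.51 ± 0.14 SE). HOXC13 had 1.14, 1.39 and 2.42 CPM in VCaP and 61.9 and 65.5 CPM in C4-2 (log2 -5.25 ± 0.17 SE), HOXC12 had 0.455, 0.925 and 0.4397 CPM in VCaP and 14.5 and 13.5 CPM in C4-2, and HOXC10 had no count in VCaP and 2.94 ± 0.162 CPM in C4-2. HOXB9 had 1 count in VCaP and 3.32 ± 0.666 CPM in C4-2. HOXD13, at 3.24 ± 0.716 CPM in VCaP and 1.11 ± 0.392 CPM in C4-2, turned to a log2 difference of -0.19 against the C4-2 vehicle library of the androgen experiment, where 5 members were lower.

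Keratins and junction proteins of luminal epithelium were mostly lower in VCaP, 20 of 29 tested (of 33) against 7 higher, with a median of -0.66. Of all genes 43.7% were lower and 41.5% higher. TJP1, a tight junction scaffold, had 206, 219 and 215 CPM in VCaP and 1406 and 1414 CPM in C4-2 (log2 -2.72 ± 0.05 SE), and DSP (desmoplakin) 181, 162 and 182 CPM in VCaP and 1016 and 1009 CPM in C4-2. TJP3 averaged 12.1 ± 3.45 CPM in VCaP and 85.7 ± 0.153 CPM in C4-2, and the protease PRSS8 35.9 ± 0.811 CPM in VCaP and 188 ± 8.28 CPM in C4-2. The luminal keratins KRT8 and KRT18 were lower, KRT8 with 162 ± 3.25 CPM in VCaP and 669 ± 46.8 CPM in C4-2, KRT18 with 114 ± 2.62 CPM in VCaP and 397 ± 11.2 CPM in C4-2. KRT8 turned to 0.06 with the C4-2 vehicle library of the androgen experiment. EPCAM, an adhesion molecule of epithelia, was higher, with 375, 382 and 377 CPM in VCaP and 73.4 and 79.1 CPM in C4-2 (log2 2.31 ± 0.05 SE). So were the desmosomal cadherins DSG2 (341 ± 6.95 CPM in VCaP and 124 ± 13.5 CPM in C4-2) and DSC2 (107 ± 1.67 CPM in VCaP and 42.4 ± 2.72 CPM in C4-2), and CLDN8, a claudin, with 21.2 ± 2.45 CPM in VCaP and 4.82 ± 0.644 CPM in C4-2.

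Mesenchymal genes were mostly lower in VCaP as well, 9 of 14 tested (of 33), 7 of them at least 4-fold. The shares of all genes were 43.7% lower and 11.9% at least 4-fold lower. FN1 (fibronectin) had 5.69, 6.94 and 7.69 CPM in VCaP and 1180.4 and 1230.5 CPM in C4-2 (log2 -7.47 ± 0.08 SE), and VIM (vimentin) had 1 count in VCaP and 17.5 ± 0.0736 CPM in C4-2. ITGA5, the fibronectin receptor chain, averaged 7.42 ± 1.77 CPM in VCaP and 72.97 ± 3.55 CPM in C4-2, and LOX, a collagen cross-linker, 0.528 ± 0.134 CPM in VCaP and 9.81 ± 2.38 CPM in C4-2. FBN1 (fibrillin) was higher, with 5.496 ± 0.384 CPM in VCaP and 1.49 ± 0.531 CPM in C4-2, as was the tropomyosin gene TPM1, with 144 ± 11.5 CPM in VCaP and 100.3 ± 2.25 CPM in C4-2. With the C4-2 vehicle library of the androgen experiment, 5 were lower and 3 higher.

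**Figure D4:**
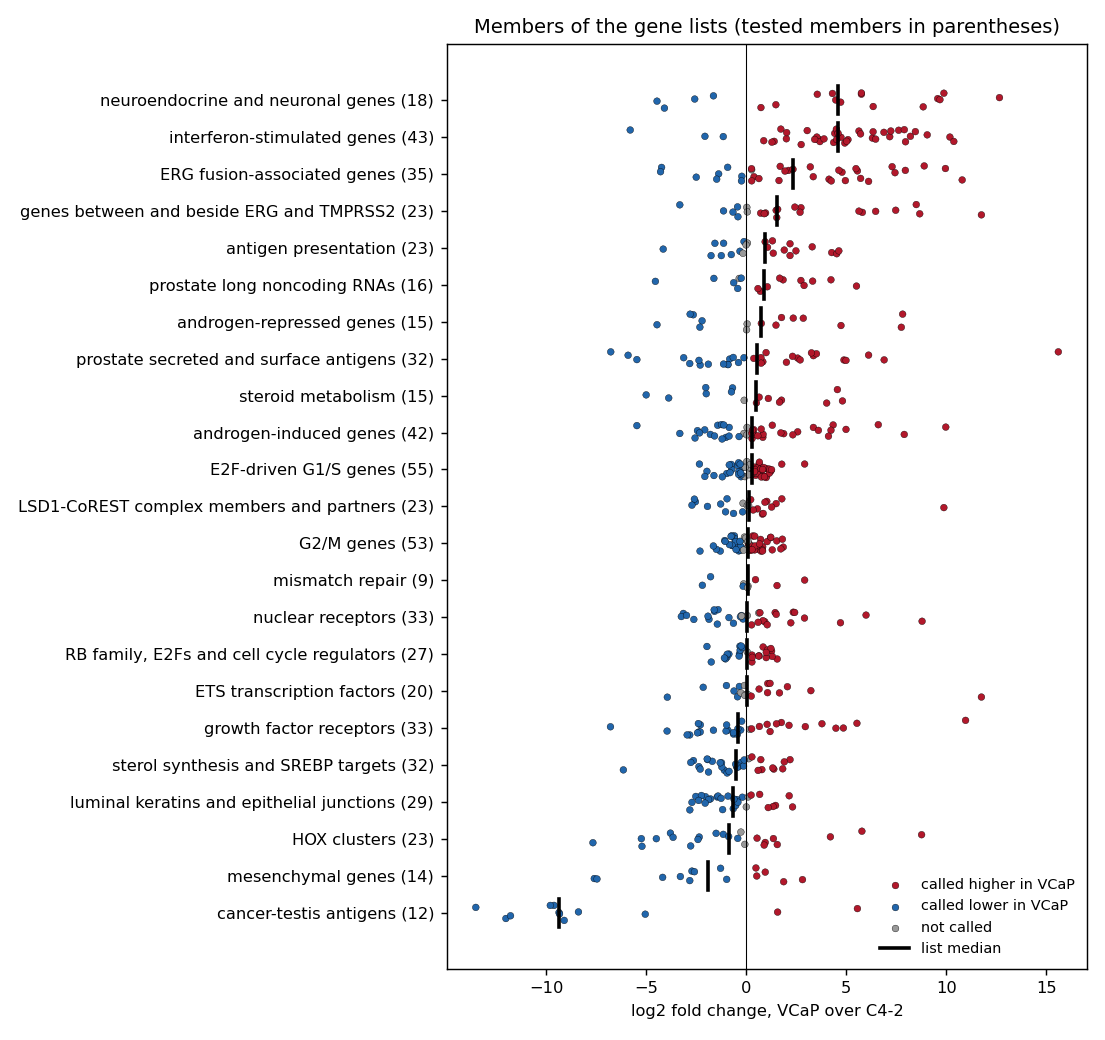
Log2 fold change of VCaP over C4-2 (x axis) for each tested member of 23 gene lists (rows, ordered by median); red points were called higher in VCaP, blue ones lower and grey ones neither, and black bars are medians. Neuroendocrine and interferon-stimulated genes head the order with medians of 4.59 and 4.58, and cancer-testis antigens end it.

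Some genes of a list that is not reported as a group follow by value. GDF15, a stress-induced cytokine, had 6.82, 9.02 and 7.25 CPM in VCaP and 1022 and 962 CPM in C4-2 (log2 -7.01 ± 0.08 SE). PHLDA3, which restrains AKT, averaged 1.29 ± 0.483 CPM in VCaP and 39.7 ± 0.1197 CPM in C4-2, PLK2, a stress-induced kinase, 7.15 ± 1.29 CPM in VCaP and 77.3 ± 6.45 CPM in C4-2, and DDB2, a DNA damage sensor, 8.53 ± 1.05 CPM in VCaP and 41.8 ± 1.46 CPM in C4-2. CDKN1A, the cell cycle inhibitor p21, averaged 54.8 ± 1.92 CPM in VCaP and 113 ± 1.097 CPM in C4-2 (log2 -1.04 ± 0.07 SE). In the other direction, the death receptor gene FAS averaged 50.4 ± 1.39 CPM in VCaP and 3.25 ± 1.76 CPM in C4-2, TP53INP1 662 ± 12.9 CPM in VCaP and 108 ± 5.79 CPM in C4-2, and BTG2 112 ± 6.597 CPM in VCaP and 41.99 ± 1.93 CPM in C4-2.

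In the PI3K pathway, which carries growth factor and insulin signals, 8 of 26 tested (of 29) were higher in VCaP and 13 lower. Shares of all genes were 41.5% higher and 43.7% lower. PIK3CD, the delta catalytic subunit, had 1.59, 2.31 and 1.32 CPM in VCaP and 329 and 311 CPM in C4-2 (log2 -7.51 ± 0.12 SE). The lines did not overlap, as was so for 88.1% of all genes. IRS2, an adaptor of insulin receptors, averaged 89.2 ± 4.76 CPM in VCaP and 4.62 ± 0.642 CPM in C4-2. DDIT4, an inhibitor of mTORC1, averaged 15.5 ± 1.31 CPM in VCaP and 407 ± 10.97 CPM in C4-2. The regulatory subunits PIK3R3 (54.7 ± 3.396 CPM in VCaP and 260.5 ± 9.27 CPM in C4-2) and PIK3R1 (86.5 ± 3.54 CPM in VCaP and 231 ± 4.22 CPM in C4-2) were lower. INPP4B, a phosphatase, had 12.1, 15.5 and 14.5 CPM in VCaP and 0.764 and 0.835 CPM in C4-2, but had 16.3 CPM in the C4-2 vehicle library of the androgen experiment, which turned its log2 difference to -0.22.

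Of 9 tested mismatch repair genes (of 10), 3 were higher and 3 lower (41.5% and 43.7% among all genes). PMS2, an endonuclease with pseudogene copies that can share its reads, averaged 18.4 ± 0.979 CPM in VCaP and 84.9 ± 6.26 CPM in C4-2. PMS1 averaged 23.1 ± 2.51 CPM in VCaP and 7.93 ± 1.497 CPM in C4-2, and turned to -0.19 against the C4-2 vehicle library of the androgen experiment, where 1 gene of the group was higher and 6 lower.

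Receptors of growth factors were higher in 13 and lower in 19 of 33 tested (of 56), with 41.5% and 43.7% among all genes. ERBB2 (HER2) had 88.3, 80.7 and 68.6 CPM in VCaP and 584 and 543 CPM in C4-2 (log2 -2.83 ± 0.05 SE). Ephrin receptors, which sense contact with neighbouring cells, differed in both directions: EPHA4 averaged 28.8 ± 2.32 CPM in VCaP with no count in C4-2, while EPHA3 had 2 counts in VCaP and 18.3 ± 1.63 CPM in C4-2. EPHB6 averaged 108 ± 4.28 CPM in VCaP and 3.77 ± 1.15 CPM in C4-2, EPHA8 16.1 ± 1.17 CPM in VCaP and 0.339 ± 0.207 CPM in C4-2, and EPHA2 0.828 ± 0.117 CPM in VCaP and 13.1 ± 1.398 CPM in C4-2. PRLR, the prolactin receptor, was higher, with 15.9 ± 0.762 CPM in VCaP and 0.695 ± 0.198 CPM in C4-2, and GHR, the growth hormone receptor, lower, with 4.14 ± 0.436 CPM in VCaP and 32.4 ± 0.714 CPM in C4-2.

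Genes of sterol synthesis and other targets of the SREBP factors were mostly lower in VCaP, 22 of 32 tested (of 33) against 9 higher, with a median of -0.51. Of all genes 43.7% were lower and 41.5% higher. FADS2, a fatty acid desaturase, had 46.6, 40.2 and 37.6 CPM in VCaP and 2979 and 2917 CPM in C4-2 (log2 -6.15 ± 0.06 SE), and SREBF1, which encodes SREBP-1, 134, 121 and 125 CPM in VCaP and 885 and 855 CPM in C4-2 (log2 -2.78 ± 0.05 SE). MVD, of the mevalonate pathway, averaged 10.6 ± 0.6895 CPM in VCaP and 66.3 ± 8.52 CPM in C4-2, and HSD17B7, of late cholesterol synthesis, 4.92 ± 1.35 CPM in VCaP and 25.5 ± 0.509 CPM in C4-2. Several enzymes of the same route were higher: SQLE (squalene epoxidase) averaged 202 ± 7.09 CPM in VCaP and 44.5 ± 1.23 CPM in C4-2, SC5D 119.5 ± 5.08 CPM in VCaP and 33.9 ± 0.266 CPM in C4-2, and PMVK 179 ± 7.72 CPM in VCaP and 69.4 ± 4.49 CPM in C4-2. MSMO1 averaged 92.9 ± 3.49 CPM in VCaP and 24.99 ± 1.19 CPM in C4-2, a direction that turned against the C4-2 vehicle library of the androgen experiment (log2 -0.24).

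RB1, KDM1A and E2F1, on which the study was built, differed by less than 4-fold. RB1, the retinoblastoma gene, had 56.2, 59.7 and 63.5 CPM in VCaP control libraries and 23.5 and 26.3 CPM in C4-2 DMSO libraries (log2 1.26 ± 0.09 SE, adjusted p 4.1e-45). The C4-2 vehicle library of the androgen experiment had 54.6 CPM, against which the difference was 0.13 and no longer called. KDM1A, the histone demethylase LSD1, had 213, 224 and 218 CPM in VCaP and 106 and 109 CPM in C4-2 (log2 1.02 ± 0.05 SE, adjusted p 1.1e-76). E2F1, the transcription factor that RB1 restrains, had 79.8, 82.3 and 90.4 CPM in VCaP and 54.7 and 53.8 CPM in C4-2 (log2 0.64 ± 0.07 SE, adjusted p 2.2e-18), and its direction turned against the C4-2 vehicle library of the androgen experiment (log2 -0.17). Of RB family members, E2Fs and cell cycle regulators, 13 of 27 tested (of 30) were higher and 13 lower, none by 4-fold, with 22.4% of all genes at that size; against the C4-2 vehicle library of the androgen experiment 4 were higher. In the main comparison 41.5% of all genes were higher and 43.7% lower. E2F3 averaged 119 ± 2.92 CPM in VCaP and 40.98 ± 3.26 CPM in C4-2, CCNE1 (cyclin E1) 3.46 ± 0.5001 CPM in VCaP and 13.6 ± 0.0493 CPM in C4-2, and CDKN1C, an inhibitor of cyclin-dependent kinases, 7.86 ± 3.49 CPM in VCaP and 26.5 ± 0.0953 CPM in C4-2.

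Partners of LSD1 were likewise split, 11 of 23 tested (of 24) higher and 9 lower (41.5% and 43.7% among all genes). RCOR2, a CoREST scaffold, averaged 6.49 ± 1.57 CPM in VCaP and 2.299 ± 0.109 CPM in C4-2. KDM1B, the second demethylase of this family, averaged 8.07 ± 0.9398 CPM in VCaP and 47.2 ± 1.36 CPM in C4-2, GSE1 89.7 ± 3.17 CPM in VCaP and 544 ± 10.4 CPM in C4-2, and GFI1, a repressor that recruits LSD1, 1.81 ± 0.9999 CPM in VCaP and 7.005 ± 0.0854 CPM in C4-2.

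Genes of the G1/S step driven by E2F were higher in 28 and lower in 20 of 55. Genes of G2/M were higher in 24 and lower in 21 of 53. Shares of all genes were 41.5% higher and 43.7% lower. TOP2A, a topoisomerase of dividing cells, averaged 447 ± 6.65 CPM in VCaP and 128 ± 9.77 CPM in C4-2, TTK, a spindle checkpoint kinase, 41.3 ± 2.71 CPM in VCaP and 11.5 ± 0.0728 CPM in C4-2, and PRIM1 (DNA primase) 52.3 ± 2.61 CPM in VCaP and 15.3 ± 2.98 CPM in C4-2. In the C4-2 vehicle library of the androgen experiment TOP2A had 399.5 CPM, against which its log2 difference was 0.16. CDC25A, a phosphatase that activates CDKs, averaged 44.9 ± 4.004 CPM in VCaP and 19.3 ± 3.47 CPM in C4-2. Lower in VCaP were GINS4, of the replicative helicase, with 4.69 ± 0.824 CPM in VCaP and 23.8 ± 0.997 CPM in C4-2, SPC24, a kinetochore gene, with 17.2 ± 1.75 CPM in VCaP and 85.8 ± 4.41 CPM in C4-2, and PTTG1 (securin) with 24.4 ± 1.42 CPM in VCaP and 76.7 ± 1.36 CPM in C4-2. The direction of both groups depended on the C4-2 library. Against the vehicle library of the androgen experiment, 7 G1/S genes were higher and 42 lower, and 5 G2/M genes were higher and 47 lower; in RB1-depleted libraries of both lines 14 G2/M genes were higher; TTK turned to -0.86, PRIM1 to -0.49, and CDC25A was no longer called (log2 0.17).

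Of 16 tested noncoding RNAs known from prostate or growth studies (of 25), 10 were higher in VCaP and 5 lower. Shares of all genes were 41.5% higher and 43.7% lower. PART1, an androgen-regulated prostate transcript, averaged 42.2 ± 4.32 CPM in VCaP and 2.23 ± 0.207 CPM in C4-2, and SNHG5, a snoRNA host, 59.2 ± 1.17 CPM in VCaP and 8.02 ± 0.348 CPM in C4-2. PCAT6 averaged 0.677 ± 0.3902 CPM in VCaP and 16.2 ± 0.711 CPM in C4-2, KCNQ1OT1, an imprinted antisense RNA, 4.84 ± 1.44 CPM in VCaP and 14.9 ± 0.168 CPM in C4-2, and MALAT1 544 ± 13.3 CPM in VCaP and 844 ± 8.59 CPM in C4-2 (log2 -0.63 ± 0.04 SE). Since the strand setting of the counting is not given in the sources used here, reads of antisense RNAs and their partners may not be separated.

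The comparison was repeated in libraries that share none with the control sets, 3 of VCaP with RB1 siRNA and 2 of C4-2 with doxycycline and DMSO. Of 13018 called genes that could be tested there, 12767 (98.1%) differed in the same direction. Of 3425 called genes with at least a 4-fold difference, all 3425 did so, and 3424 of them were called again. The libraries come from the same experiments as the control sets, so table, medium and transfection were repeated with the line. RB1 was the gene that both treatments target, and its difference in these libraries was 0.23 ± 0.17 SE (adjusted p 0.205). For KLK3 it was -4.79 and for ERG 11.60.

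**Figure D5:**
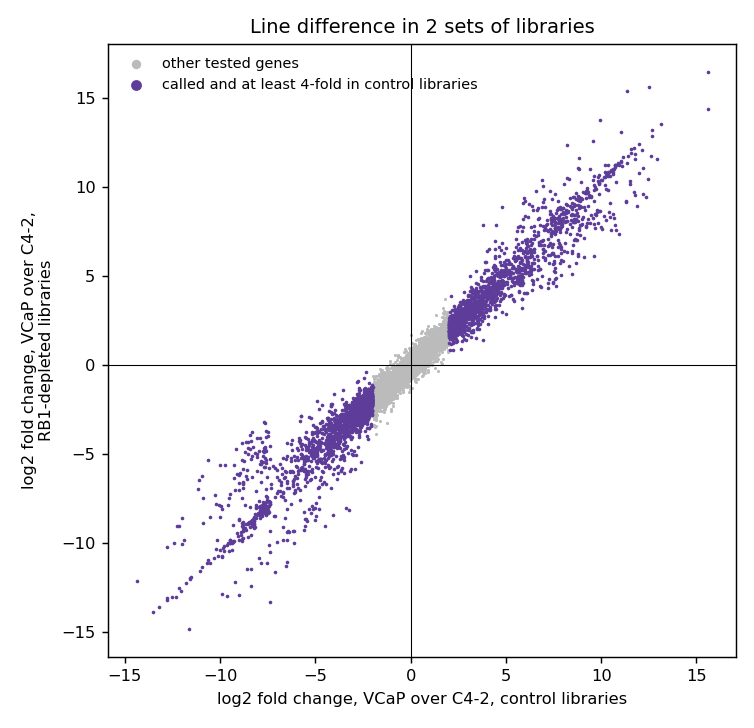
Log2 fold change of VCaP over C4-2 in RB1-depleted libraries (y axis) against that in control libraries (x axis) for each gene tested in both; purple points were called with at least a 4-fold difference in the control libraries. All purple points lie in the quadrants of equal sign.

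Whether the line difference changed with RB1 depletion was tested with the interaction of line and depletion in 10 libraries, edgeR's quasi-likelihood test with adjustment over 16902 genes, which called 1847 (10.9%). RB1 changed by -1.05 ± 0.19 SE (adjusted p 7.3e-06). KLK3 changed by 0.66 ± 0.06 SE (adjusted p 4.5e-19), which narrowed the gap between the lines at both genes. For ERG, KDM1A and E2F1 the interactions were -0.25 ± 0.95, 0.10 ± 0.07 and -0.01 ± 0.09 SE and did not pass the threshold, with adjusted p-values of 0.942, 0.404 and 0.97. An siRNA was used in VCaP and an induced hairpin in C4-2, so the tools of depletion differed with the line.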

How the data were processed

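The authors deposited raw counts of reads per Ensembl gene. Per the submitters' processing notes, FastQC 0.11.9, STAR 2.7.2 and featureCounts 1.6.4 were used with hg19 (GRCh37). The sources used here do not give the annotation version, the strand setting or the treatment of reads with several alignments. The VCaP and C4-2 tables were joined by gene ID (57773 in each), with symbols of the VCaP table. All 30 columns were mapped and 0 were not. Columns of the androgen and LNCaP tables that share a library name and differed by counting error alone (chi-square ratio 0.994 for those used) were summed as lanes.

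The 5 libraries were fitted with edgeR 4.0.16 in R 4.3.3 (TMM, filterByExpr, quasi-likelihood F test, Benjamini-Hochberg adjustment, call at 0.05). The prior degrees of freedom were infinite, so all genes share the trended spread, with 3 residual degrees of freedom. Steps were tested on simulated data. Alternatives are in the closing section. Folds against 0 use a floor of 3 counts over the group, and the 95% intervals of ratios are exact binomial (Clopper-Pearson). Genes named were RB1, KDM1A, E2F1, KLK3, ERG, the 15 largest called rises and falls above a mean log2 CPM of 3 (no clone-named gene or pseudogene), up to 4 members per direction of each list above a mean of 1, and genes with a printed promoter. Members and lists were chosen with earlier results of these data known. Some genes that this rule takes in are not reported here.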

Additional observations from a re-analysis of the deposited data

Results flagged for a closer look

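For 37 of the 193 genes named above (19.2%), the change with RB1 depletion differed between VCaP and C4-2 by the interaction test (edgeR, adjusted p under 0.05), against 10.9% of all genes. Most named genes were chosen for a large line difference above a set level, so these shares cover unlike sets of genes. Values are the log2 change in VCaP minus that in C4-2. RB1, the gene that both treatments target, had -1.05. Among lineage, androgen-regulated and ERG-associated genes the values were KLK3 0.66, KLK2 0.48, TMPRSS2 0.52, SPDEF -0.21, NFIB -0.27, ZNF217 0.41, OPRK1 -1.15, SI -2.12, BTG1 0.34 and ALOX15 0.38. Among immune genes they were MX1 1.07, DDX58 0.43 and HLA-E 0.94. Among growth and stress genes they were FAS -0.63, TP53INP1 0.27, GDF15 0.67, DDIT4 0.37, PIK3R3 -0.46, PIK3R1 -0.38, PRLR -1.36, ERBB2 0.28, CDKN1A -0.51, TOP2A -0.45 and PRIM1 -0.36. Among epithelial, matrix and other genes they were ENO2 0.34, EPCAM -0.22, TJP1 0.25, DSP 0.39, PRSS8 0.29, KRT8 0.23, LOX 1.87 and MALAT1 0.28. Among lipid genes they were MSMO1 -0.29, SC5D -0.25, FADS2 -0.40 and SREBF1 -0.48. The tools of depletion differ between the lines, and their part in these values was not tested.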

How the results depend on the processing

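Counts of calls stayed within 1.5 times of those reported with RLE or upper-quartile factors, in libraries thinned to equal depth, in RB1-depleted libraries and with the other C4-2 library. A test against a 2-fold difference (glmTreat) called 2786 genes higher and 3122 lower. At 4-fold, dropping the filter gave 2712 higher and 3734 lower, a fit of 14 libraries 2481 and 3258, and DESeq2 2487 higher. More genes were tested without the filter. DESeq2 was also run without the edgeR filter, and the fit of 14 libraries was filtered over those libraries, so the genes tested differed there too. What part this had in the changes was not tested. Leaving out each replicate gave 6352 to 6605 genes higher and 6719 to 7158 lower, and 1755 to 1879 higher and 1874 to 2393 lower at 4-fold; with 1 C4-2 library left, it is assumed to vary like the VCaP ones. The lines come from different experiments, so the replicate numbers were not taken as pairs. Correlations of deviations were 0.03 for replicate 1 and -0.004 for replicate 2. The 2 C4-2 libraries deviate from their mean as mirror images, so these values cannot decide on pairing. With the replicate number as a block, 6165 genes were higher and 6475 lower, 1627 and 1831 at 4-fold, and no named gene lost its call.

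Of 193 named genes, all that could be tested kept direction and call in the other settings except the RB1-depleted libraries, where RB1 lost its call, and the C4-2 vehicle library of the androgen experiment, a single library of another kit and medium. Against that library 171 kept both, 4 lost their call (RB1, GABPA, PSMB10 and CDC25A) and 13 reversed, with log2 differences of -0.17 for E2F1, 0.52 for HOXB13, -0.22 for INPP4B, -0.19 for PMS1, -0.19 for HOXD13, 0.74 for ENO2, 1.36 for RET, -0.24 for MSMO1, -0.49 for PRIM1, -0.86 for TTK, -0.76 for TEX15, 0.29 for ITGB4 and 0.058 for KRT8. MUC1, TUBB3, HOXC10, HOXB9 and PCAT6 fell under the filter there and were not compared. A kept call does not mean an equal size. Against that library the log2 difference of TOP2A went from 1.80 to 0.16 and that of THRB from 2.41 to 0.45. The cause of the changes was not tested. Of 66 list counts, 18 moved by over 1.5 times against it, 4 each without the filter, in the fit of 14 libraries and with DESeq2, 3 in RB1-depleted libraries (G2/M genes higher, 14 there) and 1 or 2 on leaving out a replicate; those of interferon-stimulated and ERG-associated genes and cancer-testis antigens moved under none of these settings. For cancer-testis antigens with no VCaP count the call was fixed in advance, so a steady count there says little. The VCaP libraries are shallower, which limits low genes there.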

Other observations

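Stretches of neighbouring genes that were silent in 1 line were sought by a rule chosen after the data were seen: in RefSeq gene order (GRCh38.p14), genes with at most 3 counts over the 6 VCaP or the 4 C4-2 libraries of their experiments, with at least 2 of the stretch at 10 CPM or more in the other line. Of 20056 genes, 18902 were matched by Ensembl gene ID, or by symbol or synonym where the ID gave no match. In VCaP 3 stretches were found. On chromosome 8, PPP2R2A, a regulatory subunit of phosphatase 2A, had 2 counts in VCaP libraries and 147.5 CPM on average in C4-2, and its neighbour BNIP3L had 1 count in VCaP and 306 CPM in C4-2. Both were expressed in LNCaP, PPP2R2A at 153.5 CPM and BNIP3L at 144.5 CPM. On chromosome 15, WDR72 had no count in VCaP and 12.99 CPM in C4-2, and UNC13C none in VCaP and 44.4 CPM in C4-2. On the X chromosome, a stretch of 17 genes held MAGEA10, MAGEA12 and MAGEA6, described above, with MAGEA3 (1 count in VCaP and 70.5 CPM in C4-2), CSAG1 (2 counts in VCaP and 55.6 CPM in C4-2) and GABRA3, a receptor subunit for the transmitter GABA (no count in VCaP and 13.1 CPM in C4-2).

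In C4-2 2 stretches were found. On chromosome 5, the protocadherin genes PCDHB8, PCDHB16, PCDHB10 and PCDHB11, adhesion molecules of neurons, had 10.0 to 13.9 CPM in VCaP, against 1 to 3 counts in C4-2; LNCaP had 4.68 to 14.3 CPM. They are close paralogs, and their reads may be split. On chromosome 10, BICC1, an RNA-binding protein, had 23.5 CPM in VCaP and no count in C4-2, and its neighbour PHYHIPL had 13.4 CPM in VCaP and 1 count in C4-2; LNCaP had no read of either.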
